A study of Homo sapiens with 4 samples.

Results

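The 10 genes described here are 6 keratins (KRT7, KRT8, KRT18, KRT19, KRT80 and KRT34) and 4 genes of the epithelial surface (MUC1, CDH1, EPCAM and CLDN1). They were taken by symbol, with 1 row each, from a table of 63651 rows and 56620 symbols. RNA came from BJ-5ta, an established human foreskin fibroblast line immortalised with telomerase, as derived clones that carry FOXA2 under doxycycline control. The uninduced group comprised 2 samples without doxycycline and the induced group 2 samples given 0.5 µg/ml doxycycline. Cells of both groups carried the transgene and were kept in hygromycin B, puromycin and basic fibroblast growth factor. The labels do not say whether all samples came from 1 clone, how long FOXA2 was induced, or which cultures received mimosine, an agent that holds cells in G1. FOXA2 is a forkhead factor of endoderm and liver, and the comparison of the groups addressed how its induction changes RNA levels in fibroblasts. No doxycycline-treated cells without the transgene were analysed here, so effects of the drug and of FOXA2 cannot be told apart.

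Keratins are the intermediate filament proteins of epithelia, and each filament is built from pairs of a type I and a type II keratin. KRT8 (type II) and KRT18 (type I) are the usual pair of simple, single-layered epithelia, often joined there by KRT7 (type II) and KRT19 (type I), whereas KRT34 is a type I keratin of hair. Fibroblasts build their filaments mainly from vimentin. MUC1 is a cell surface mucin, CDH1 is E-cadherin of adherens junctions, EPCAM is an epithelial adhesion molecule, and CLDN1 is a claudin of tight junctions.

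Levels are given in FPKM, fragment counts divided by transcript length and by the size of the library, so that they can be compared between genes. Each gene has 1 FPKM value for each group, with bounds of a confidence interval, and none for the separate samples. There is therefore no replicate check, SD, n or p-value, and the depth of the libraries is unknown. The words rise and fall are kept for genes whose 2 deposited intervals do not overlap. Such a separation is no test across cultures, and an overlap does not show that levels were equal. Differences (uninduced subtracted from induced) are of log2(FPKM + 1), a scale that understates changes of low genes, and counts of genes at least 2-fold higher or lower are taken on it. Genes at 1 FPKM or more in at least 1 group were kept, which left 14319 rows.

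The labels were checked first. FOXA2 rose, being at 4.82 FPKM uninduced (interval 0.526 to 9.12) and 104 FPKM induced (50.2 to 158). Its row does not separate transgene from endogenous transcripts. All 15 fibroblast markers were kept, with summed levels of 6208 FPKM uninduced and 5543 FPKM induced. That sum joins opposite differences, since 4 of the 15 were at least 2-fold higher and 4 at least 2-fold lower after induction. The fibronectin gene FN1 was at 863 and 2111 FPKM and the vimentin gene VIM at 2098 and 905 FPKM, both with overlapping intervals, and FAP, a surface protease, fell. In contrast, 0 of 10 markers of simple epithelium, 0 of 8 of mesothelium and 0 of 6 of endothelium reached 1 FPKM in either group. The summed level of the simple epithelium markers, which include CDH1 and EPCAM, was 0.288 FPKM uninduced and 1.54 FPKM induced. Of these 10 markers 5 were listed at 0 in both groups, ESRP1 and GRHL2 among them. Of 10 keratinocyte markers 3 were kept, the highest by mean of both groups being PERP and KRT15, with summed levels of 53.1 and 48.6 FPKM over the list, and the basal keratin KRT5 was listed at 0 in both groups. In bulk RNA a smaller number of expressing cells and less RNA per cell cannot be told apart.

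Of the 10 genes, KRT34 fell and none rose. Only 7 of the 10 reached the 1 FPKM filter (KRT7, KRT8, KRT18, KRT80, KRT34, MUC1 and CLDN1), and KRT34 did so only through the uninduced group. KRT7, MUC1 and CLDN1 had at least 2-fold higher values after induction, with overlapping intervals. KRT18 was 2.20-fold lower, also with overlapping intervals, and its difference shrank to -0.93 (under 2-fold) with both groups scaled to the same FPKM sum. KRT19, EPCAM and CDH1 stayed under 1 FPKM in both groups. Across all kept genes, 0.726% rose, 0.454% fell, 9.2% were at least 2-fold higher and 6.03% at least 2-fold lower. The median difference of all 10 genes was 0.45, with 6 above 0 and 4 below. Over the 7 kept it was 0.44, beside a median of 0.05 for all kept genes. With both groups scaled to the same FPKM sum, the median of all kept genes moved to 0.23 and that of the 7 to 0.58. On that scale 1795 genes were at least 2-fold higher and 623 lower, in place of 1317 and 863. After quantile normalization the median of the 7 was 0.15, beside -0.02 for all kept genes.

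**Figure D1:**
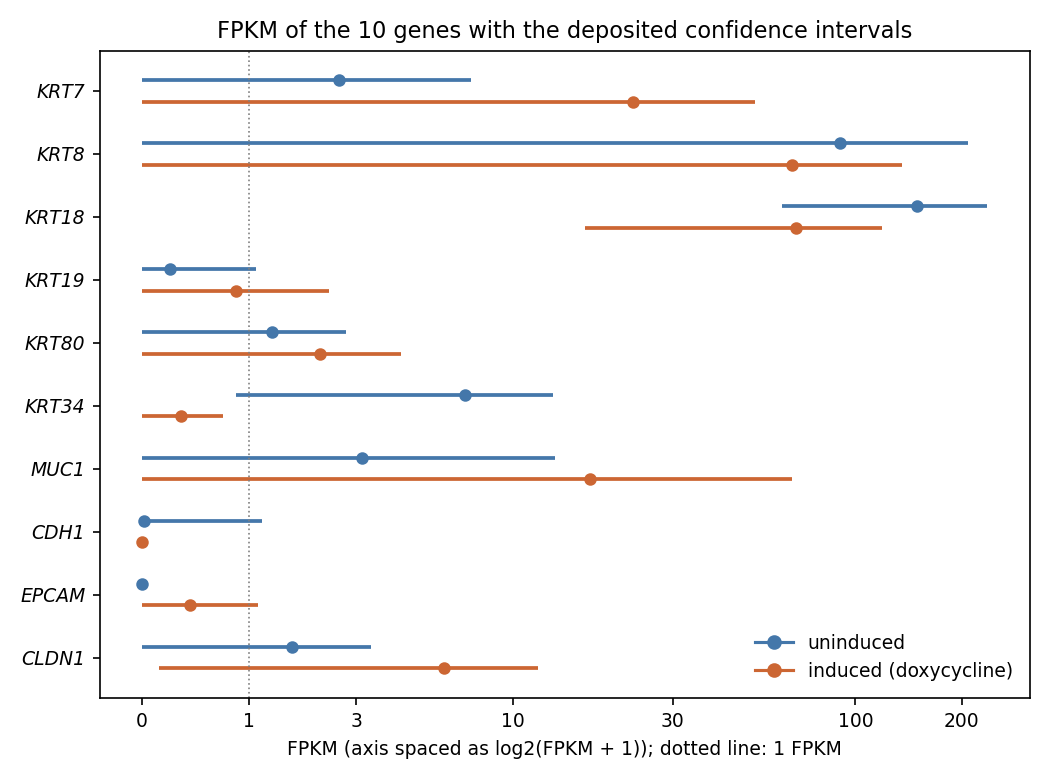
FPKM of the 10 genes (points) with the deposited confidence intervals (lines) in the uninduced and induced groups; the axis is spaced as log2(FPKM + 1) and the dotted line marks 1 FPKM. The intervals of KRT34 lie apart, at 0.835 to 13.3 FPKM uninduced and 0 to 0.693 FPKM induced, and those of the other genes overlap.

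KRT8 and KRT18 were the most abundant of the 10 genes and of all keratins in both groups. KRT18 (ENSG00000111057) was at 149 FPKM uninduced (interval 61.7 to 237) and 67.7 FPKM induced (16.6 to 119), a log2 difference of -1.13. The intervals overlapped, and the interval of the FPKM difference ran from -183 to 19.9. KRT18 lay above 95.7% of kept genes uninduced and above 88.9% induced. KRT8 (ENSG00000170421) was at 90.6 FPKM uninduced (0 to 208) and 65.8 FPKM induced (0 to 135), a log2 difference of -0.45. Both intervals of KRT8 reached 0 although the gene lay above 91.2% and 88.5% of kept genes, so the table hardly bounds its change.

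The KRT8 to KRT18 ratio was 0.607 in the uninduced and 0.972 in the induced group. The pair made up 86.6% of the summed FPKM of the 54 keratins counted below uninduced and 71.4% induced. Both genes are given 1 shared span in the table, chromosome 12, 53290977 to 53346686 in hg19, together with AC107016.1, which was also above the filter. The libraries did not keep strand, so reads where these genes overlap cannot be assigned by strand. Processed pseudogenes may add a further source of shared reads. Of 50 KRT8 pseudogene rows 2 were kept, of which KRT8P12 had the higher level (5.04 and 7.86 FPKM), and of 74 KRT18 pseudogene rows 0 were kept. KRT8P3, which shared the most sequence with KRT8 (measured below), was at 0.151 and 0.383 FPKM. The level of a pseudogene row is thus no measure of the reads it shares with KRT8.

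KRT7 (ENSG00000135480), the type II keratin of many glandular and ductal epithelia, had the largest increase in value among the 10. It was at 2.58 FPKM uninduced (interval 0 to 7.38) and 23.0 FPKM induced (0 to 51.9), 8.91 times the uninduced value and a log2 difference of 2.74. Its rank moved from above 19.8% of kept genes to above 63.1%, but both lower bounds were 0 and the intervals overlapped. KRT7 took 2.70% of the summed FPKM of type II keratins uninduced and 24.7% induced, while KRT8 took 94.8% and 70.8%. The span of KRT7 in the table, chromosome 12, 52626304 to 52702947, is shared with 6 other rows, among them the hair keratins KRT81 (0.846 and 0.514 FPKM) and KRT86 (0.0697 and 0.751 FPKM), and none of the 6 was kept.

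KRT19 (ENSG00000171345), a type I keratin of simple and ductal epithelia, was at 0.200 FPKM uninduced (interval 0 to 1.09) and 0.839 FPKM induced (0 to 2.35). KRT20 and KRT23, the other simple epithelial keratins listed, were at 0 in both groups. KRT80 (ENSG00000167767), a type II keratin of epidermal and other epithelia, was at 1.32 FPKM (0 to 2.74) and 2.16 FPKM (0 to 4.35), a log2 difference of 0.44. Both genes were somewhat higher in value after induction, within intervals that reached 0 in both groups.

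KRT34 (ENSG00000131737; chromosome 17, 39533902 to 39538655 in hg19) was the 1 gene of the 10 that fell. It was at 7.08 FPKM uninduced (interval 0.835 to 13.3) and 0.287 FPKM induced (0 to 0.693), a 24.7-fold lower value and a log2 difference of -2.65. The nearest bounds were only 1.21-fold apart, or 0.143 FPKM. The interval of its FPKM difference, -13.0 to -0.536, also excluded 0, as it did for 1.11% of kept genes on the lower side. Before induction KRT34 lay above 35.3% of kept genes, and afterwards above 0.740%. The most similar hair keratins in sequence, KRT33B, KRT33A and KRT31, were at 0.144, 0 and 0 FPKM uninduced and at 0 in the induced group. The 250 bases before the RefSeq start of KRT34 are shown because it is the gene that fell (GRCh38.p14, chr17:41382307-41382556, minus strand, 5′ to 3′). The capitals mark a TATA box (TATAAA), which begins 31 bases before the start.
KRT34: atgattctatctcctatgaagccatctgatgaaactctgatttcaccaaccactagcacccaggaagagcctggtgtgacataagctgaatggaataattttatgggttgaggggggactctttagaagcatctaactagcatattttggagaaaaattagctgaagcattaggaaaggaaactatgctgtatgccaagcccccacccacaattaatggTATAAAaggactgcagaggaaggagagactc

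**Figure D2:**
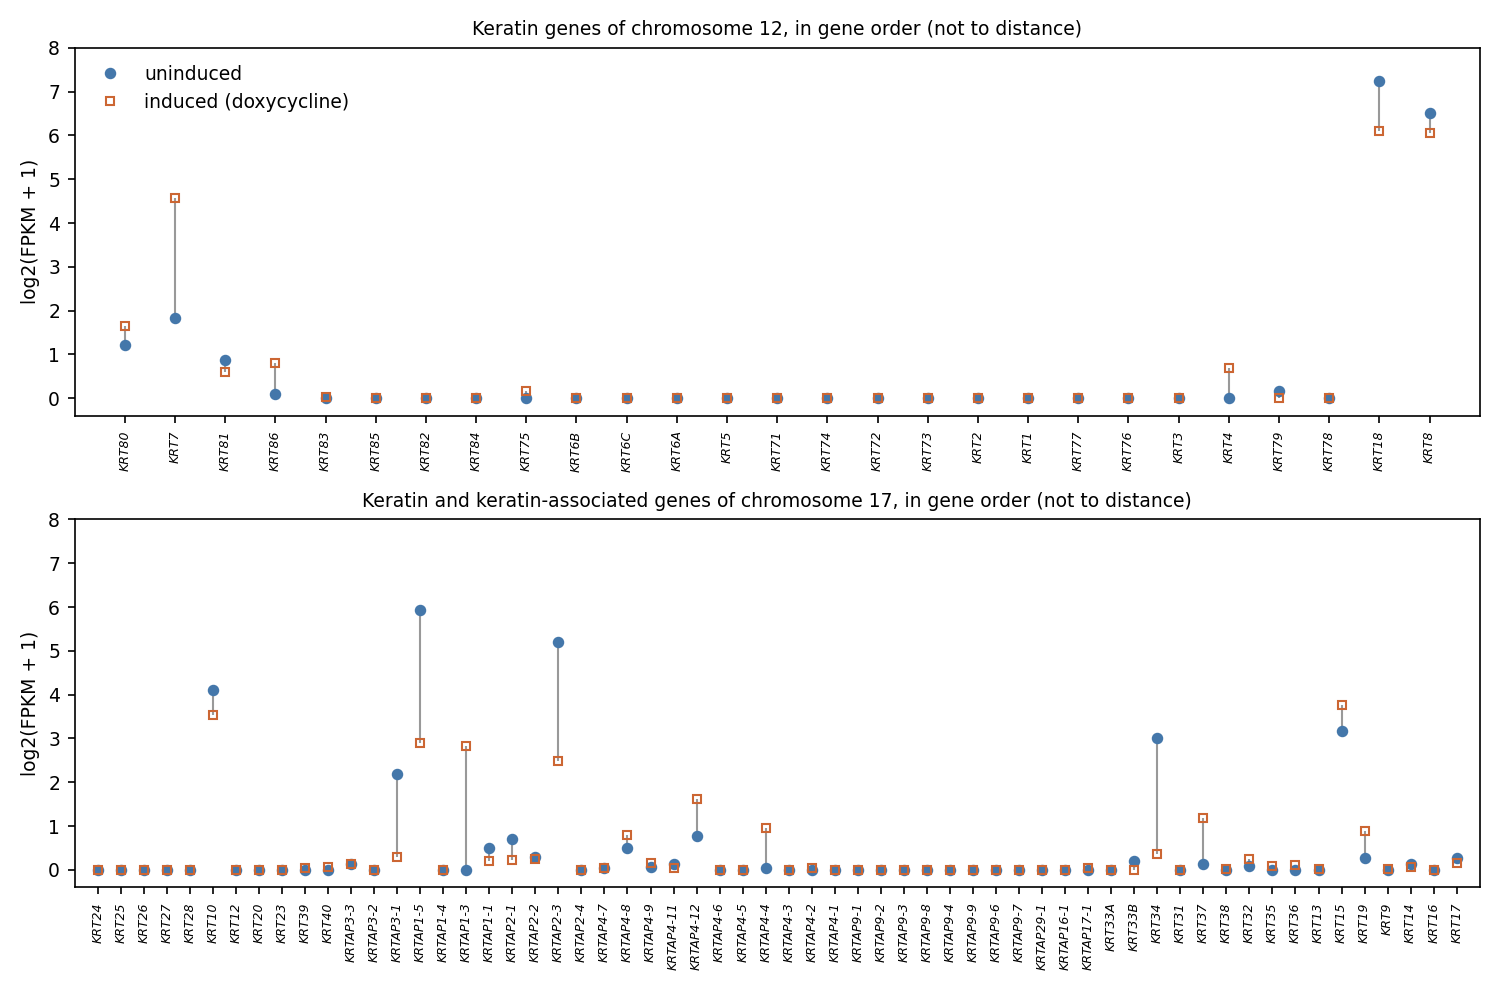
Levels of keratin genes of chromosome 12 (top) and of keratin and keratin-associated genes of chromosome 17 (bottom) as log2(FPKM + 1), in gene order and not to distance, with filled circles for uninduced and open squares for induced. KRT18 and KRT8 stand at the end of the upper panel with the highest levels, KRT7 has the higher value after induction, and KRT34 and KRTAP1-5 are lower in the lower panel.

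Seen as a family, the keratins of these fibroblasts were few. Of 54 keratin genes 28 were listed at 0 in both groups and 8 were kept. The 5 of type I were KRT18, KRT10, KRT15, KRT34 and KRT37, and the 3 of type II were KRT8, KRT7 and KRT80. KRT222 was not counted among the 54 or in the sums below, and was at 1.06 FPKM in both groups. KRT10, of suprabasal epidermis, was at 16.1 FPKM (interval 2.96 to 29.3) and 10.6 FPKM (0.546 to 20.7). KRT15, of basal epidermis, was at 8.08 FPKM (0 to 17.3) and 12.6 FPKM (0 to 27.3). The summed FPKM of type I keratins was 181 uninduced and 94.0 induced, and that of type II keratins 95.5 and 93.0. KRT18 alone, whose intervals overlapped, made up 82.3% and 72.1% of the type I sum. Their induced to uninduced ratios were 0.519 and 0.973, and with the groups scaled to the same sum 0.596 and 1.12, so that the direction for type II depended on the scale.

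MUC1 (ENSG00000185499) had the second largest increase in value. It was at 3.15 FPKM uninduced (interval 0 to 13.4) and 17.1 FPKM induced (0 to 65.9), 5.44 times the uninduced value and a log2 difference of 2.13. It moved from above 22.3% to above 54.7% of kept genes. Its intervals were the widest of the 7 kept genes relative to the level, with upper bounds 327% and 285% above the FPKM, and they overlapped. Of 16 mucins 2 were kept, MUC1 and the membrane mucin MUC12 (1.15 and 0.877 FPKM). MUC4 and MUC16 were at or near 0 in both groups. The span of MUC1, chromosome 1, 155141884 to 155162707, is shared with 3 other rows, of which 2 were kept: KRTCAP2, a subunit of the oligosaccharyltransferase complex, at 128 and 119 FPKM, and TRIM46 at 1.77 and 2.49 FPKM.

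CLDN1 (ENSG00000163347; chromosome 3, 190023490 to 190040264) was at 1.64 FPKM uninduced (interval 0 to 3.403) and 6.04 FPKM induced (0.113 to 11.97). This was 3.69 times the uninduced value and a log2 difference of 1.42, with overlapping intervals. No other row shares its span, and the lower bound lay above 0 only after induction. Of 23 claudins 6 were kept, CLDN1 among them, and 0 rose or fell, beside 0.726% and 0.454% of all kept genes. Their median log2 difference was 1.04, beside 0.05 for all kept genes, but it depended on the filter. CLDN11 (0.832 and 2.95 FPKM) and CLDN23 (near 0 and 1.30 FPKM) were kept only through the induced group. Over all 23 the median was 0. The highest by mean of both groups were CLDN12 (27.2 and 26.9 FPKM) and CLDN15 (2.77 and 6.44 FPKM). CLDN4 and CLDN7, claudins typical of simple epithelia, stayed under 1 FPKM (0.213 and 0.566 FPKM for CLDN4, 0.0254 and 0.337 FPKM for CLDN7).

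CDH1 and EPCAM, the 2 markers most often used to recognise epithelial cells, were not detected at a level the table could bound. CDH1 (ENSG00000039068) was at 0.0118 FPKM uninduced (interval 0 to 1.17) and was listed at 0 induced. EPCAM (ENSG00000119888) was listed at 0 uninduced and was at 0.366 FPKM induced (0 to 1.11). No ratio is given against a value of 0, and the deposited interval of each 0 was 0 to 0. Of the other cadherins, CDH11, typical of fibroblasts and other mesenchymal cells, was at 117 FPKM (24.0 to 210) and 84.2 FPKM (16.9 to 151), and CDH2, or N-cadherin, at 40.2 FPKM (17.4 to 63.0) and 40.7 FPKM (14.2 to 67.3), both with overlapping intervals.

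The sequences of MUC1 and CLDN1 before their RefSeq starts are shown because these surface genes had the largest increases in value (GRCh38.p14, both on the minus strand, 5′ to 3′). Capitals mark a TATA box (TATAAA), GC boxes (GGGCGG or its reverse complement CCGCCC) and E-boxes (CACCTG), the last being the letters bound by SNAI and ZEB repressors. The MUC1 stretch, chr1:155192916-155193165, belongs to 1 of the 2 RefSeq starts held for MUC1, and the CLDN1 stretch is chr3:190322447-190322696. For KRT8 only the 27 bases with the FOXA core TGTTTGC in capitals are shown, chr12:52926443-52926469 on the minus strand. The core begins at base 11 of the transcript from the 1 RefSeq start held for KRT8. The deposited data list 18 start sites for KRT8 and 9 for MUC1, and promoter sequence was held only for these RefSeq starts.
MUC1: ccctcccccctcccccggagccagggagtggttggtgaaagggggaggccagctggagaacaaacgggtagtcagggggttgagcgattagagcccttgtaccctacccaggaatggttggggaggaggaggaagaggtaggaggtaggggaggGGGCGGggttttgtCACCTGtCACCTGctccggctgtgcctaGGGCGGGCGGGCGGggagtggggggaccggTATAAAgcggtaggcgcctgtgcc
CLDN1: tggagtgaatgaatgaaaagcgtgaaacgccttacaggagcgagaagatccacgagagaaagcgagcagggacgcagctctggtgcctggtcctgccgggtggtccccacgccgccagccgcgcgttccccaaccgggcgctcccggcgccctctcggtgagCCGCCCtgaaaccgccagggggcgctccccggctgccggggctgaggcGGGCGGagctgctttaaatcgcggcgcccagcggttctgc
KRT8: attcagcaaaTGTTTGCggaatgaatg

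These promoters differed in composition. The KRT34 stretch had 42.4% G and C and 0 CpG, the MUC1 stretch 66.0% and 11 CpG, and the CLDN1 stretch 68.8% and 28 CpG, beside medians of 58.0% and 11 CpG over 35116 promoters. The table of promoters held 4 of the 10 genes (KRT8, KRT34, MUC1 and CLDN1). Both strands were searched, from 250 bases before to 50 after each start. The FOXA cores TGTTTAC and TGTTTGC were in 3.42% and 3.89% of all promoters; TGTTTAC was in none of the 4 and TGTTTGC in KRT8. TATAAA was in 11.5% of all promoters and in KRT34 and MUC1, GGGCGG in 45.0% and in CLDN1 and MUC1, and CACCTG in 20.6% and in MUC1. GGGCGG matches in MUC1 overlap one another. A match here is a description of letters and not of binding.

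**Figure D3:**
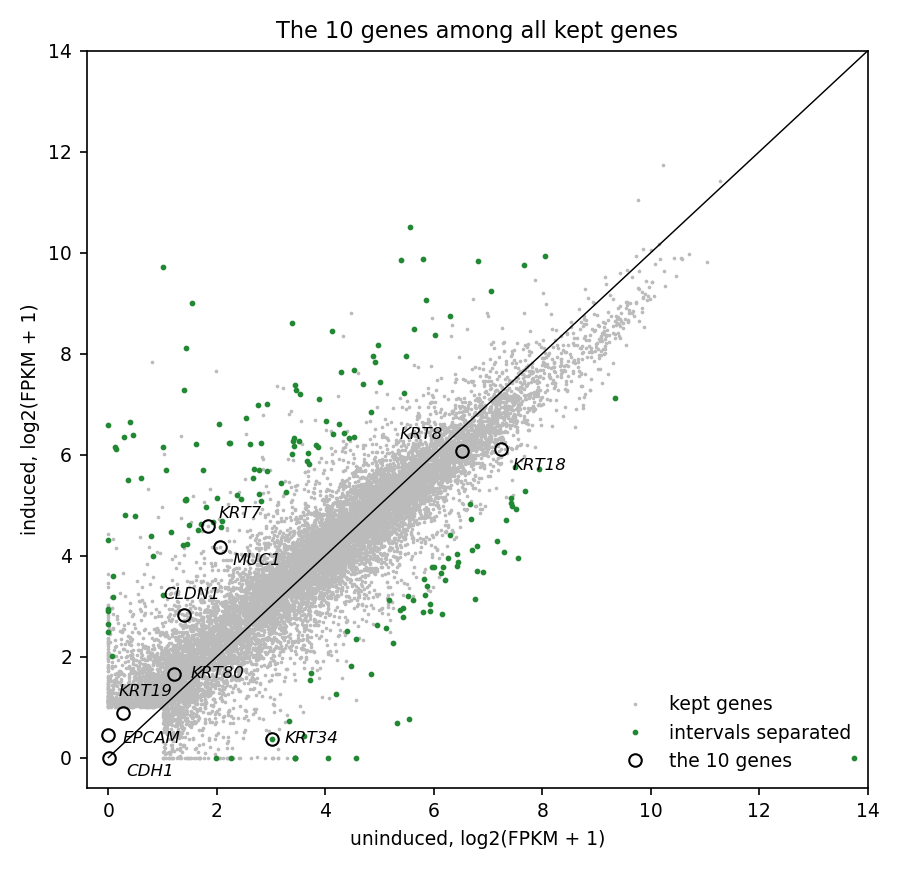
Level in the induced against the uninduced group, as log2(FPKM + 1), for all kept genes (grey), genes whose intervals are separated (green) and the 10 genes (circles); the line marks equal levels. KRT7, MUC1 and CLDN1 lie above the line among genes with overlapping intervals, KRT34 lies below it with separated intervals, and CDH1 and EPCAM lie at the origin or close to it.

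The precision of the deposited values differed between the genes. Upper bounds lay 58.6% above the FPKM for KRT18 uninduced, 88.2% for KRT34, 130% for KRT8 and 186% for KRT7, beside a median of 96.4% over kept genes at 1 FPKM or more. They lay 327% above it for MUC1. Sequence sharing was measured as the share of 50-base words of a gene's coding transcripts (GENCODE release 29) found on either strand in transcripts of other genes. It was 35.9% for KRT18, 16.2% for KRT8, 11.4% for KRT34, 10.7% for KRT7, 2.27% or less for KRT19, KRT80, CDH1 and EPCAM, and 0 for MUC1 and CLDN1. For KRT18 the most shared words were with KRT8 (16.2%) and KRT18P11 (7.52%), for KRT8 with KRT8P3 (7.54%), for KRT7 with KRT7-AS (10.3%), and for KRT34 with KRT33B (6.64%). How the authors' counting treated such reads is not stated, so the values of KRT8, KRT18, KRT7 and KRT34 are uncertain to that extent.

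The companion genes of these 10 mostly had overlapping intervals, as did nearly all kept genes, of which 0.726% rose and 0.454% fell. Among the genes of all companion lists that are not among the 10, KLF5 alone was separated. KLF5, a zinc finger factor of epithelial progenitors, rose by a log2 difference of 2.21, being at 11.6 FPKM uninduced (interval 1.32 to 22.0) and 57.6 FPKM induced (23.3 to 91.9). Of 17 epithelial transcription and splicing factors 4 were kept, with GRHL1 at 0.657 and 3.01 FPKM, TFAP2A at 28.9 and 27.5 FPKM, and TFAP2C at 18.4 and 18.3 FPKM. Of 9 repressors of epithelial genes 8 were kept and 0 rose or fell, with a median of -0.09 that turned to 0.11 with the groups scaled to the same sum. The highest by mean of both groups were TCF3 (76.3 and 72.8 FPKM) and TWIST2 (57.6 and 45.0 FPKM). TCF4 had the largest upward difference of the list, at 35.1 and 53.2 FPKM (0.58), and SNAI2 and ZEB1 were at 42.6 and 32.2 FPKM and at 43.3 and 40.01 FPKM.

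Only part of the junction and linker genes passed the filter, and 0 of those rose or fell. Across all kept genes only 0.726% rose and 0.454% fell, so a count of 0 says little about lists of this size. Of 22 keratin linkers and desmosomal genes 8 were kept, with a median of -0.08 (0.08 with the groups scaled to the same sum); the cytolinkers PLEC and DST were at 83.5 and 88.6 FPKM and at 44.0 and 59.4 FPKM. DSP, or desmoplakin, which anchors keratins to desmosomes, was at 8.43 FPKM (interval 3.28 to 13.6) and 17.6 FPKM (8.30 to 26.9). However, 9 of the 22 were listed at 0 in both groups, among them the desmosomal cadherins DSG1, DSG2, DSC1 and DSC2. DSG3 and DSC3 stayed under 1 FPKM. Of 26 cadherins and catenins 9 were kept (median 0.02), the highest by mean of both groups being the catenins CTNNA1 (151 and 143 FPKM) and CTNNB1 (131 and 103 FPKM). Of 12 EPCAM relatives and partners 6 were kept (median 0.16), the highest by mean being CD44 (523 and 272 FPKM) and the tetraspanin CD9 (104 and 207 FPKM). Of 21 other tight junction genes 20 were in the table and 11 were kept (median 0.11, and -0.06 after quantile normalization), the highest by mean being the scaffolds TJP1 (30.8 and 40.6 FPKM) and PARD3 (26.7 and 32.2 FPKM).

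Most non-keratin filament genes, vimentin among them, were lower in value, 5 of the 7 kept. VIM was at 2098 FPKM uninduced (interval 264 to 3932) and 905 FPKM induced (277 to 1532), which was 14.1 and 13.4 times KRT18. Of 15 non-keratin filament genes 7 were kept, with a median of -1.21 (-1.01 with the groups scaled to the same sum). Of the 7 kept, 4 were at least 2-fold lower, 1 was at least 2-fold higher and 0 rose or fell. The shares over all kept genes were 6.03% at least 2-fold lower, 9.2% at least 2-fold higher, 0.726% that rose and 0.454% that fell. The lamin LMNA was at 484 and 261 FPKM, NES, or nestin, at 93.3 and 39.0 FPKM, and the lamin LMNB1 at 74.4 and 17.2 FPKM. The other two had higher values after induction, SYNM, or synemin, at 0.220 and 4.83 FPKM and the lens filament gene BFSP1 at 2.50 and 2.69 FPKM.

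**Figure D4:**
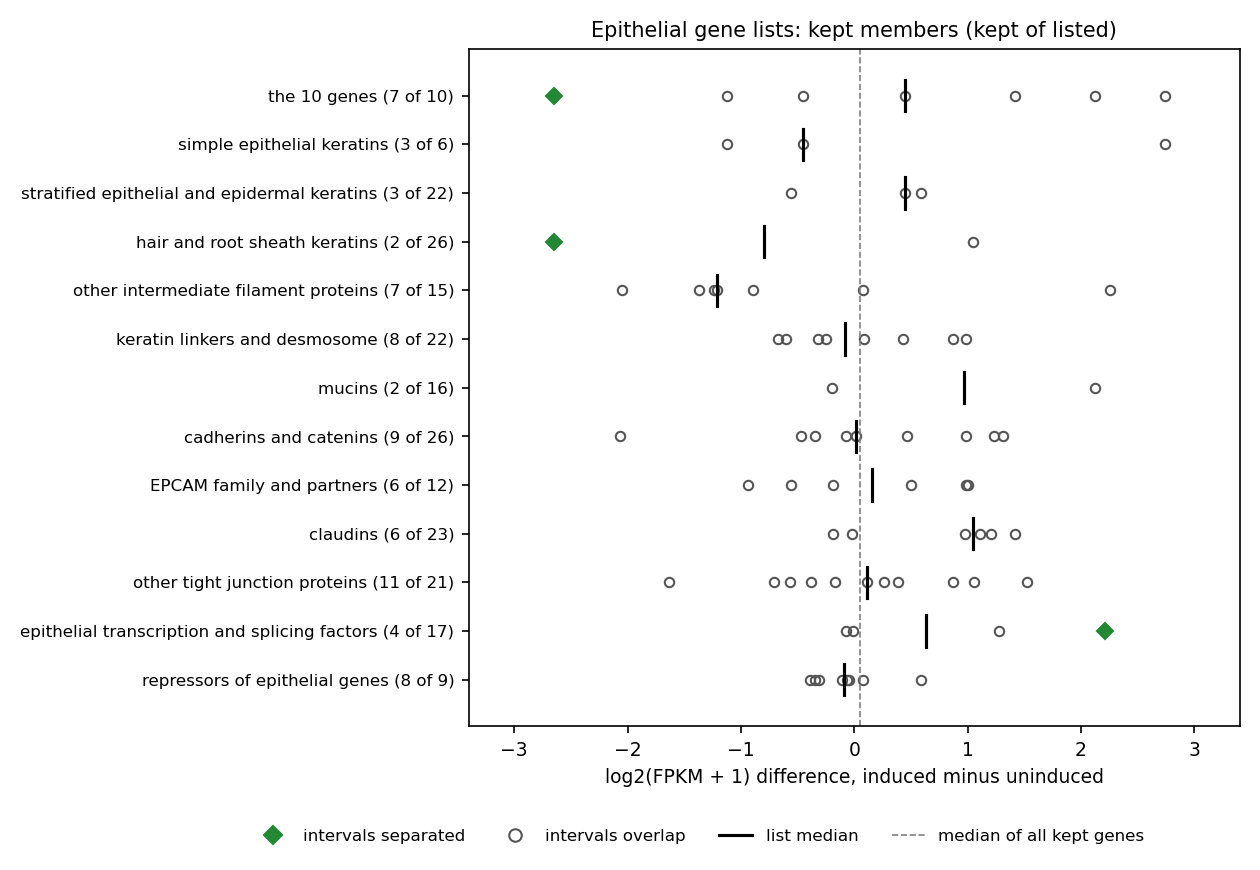
Log2(FPKM + 1) differences, induced minus uninduced, of the kept genes of each list (numbers are kept of listed), with filled diamonds where intervals are separated and open circles where they overlap; short bars are list medians and the dashed line is the median of all kept genes, 0.05. KRT34, shown under its 2 lists, and KLF5 are the separated genes, and the 10 genes spread from -2.65 for KRT34 to 2.74 for KRT7.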

How the data were processed

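RNA-seq libraries of 2 uninduced and 2 induced samples were made with a kit that does not keep strand, per the labels' protocols. The submitters' processing notes name TopHat and the build hg19. What produced the gene levels, and from which annotation, is not given in the sources used here. Per the file headers, the deposited table gives FPKM and confidence bounds, in 1 set of columns per group. Whether a column combines both samples, and the level of the intervals, is not stated. Another 3 value columns, of a condition matching no sample used here, were left out. Starts are printed counting from 1.

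Genes at 1 FPKM or more in at least 1 group were kept (14319 rows), a pseudocount of 1 was added before log2, and 3 kept rows with malformed bounds were never said to rise or fall. For the interval of a difference the distances from FPKM to upper bound were combined in quadrature. For symbols on several rows the row of highest mean stood for the gene. The planned limma fit needs values per sample and was not run. The genes and lists were chosen with earlier results of these data known. Named were the 10 genes, FOXA2 and, for each list, up to 4 genes with separated intervals or otherwise the 2 highest. COL3A1, FN1, DCN, POSTN, THY1, S100A4, CDH11, CDH2, DSP, TCF4, BFSP1, SNAI2, ZEB1, NES, LMNB1, SYNM, GRHL1, TFAP2A, TFAP2C, CLDN4, CLDN7 and keratins and mucins outside that rule, pseudogenes, keratin-associated genes and genes sharing a span were chosen after their values were seen, as were the TATA box, GC box and E-box searches. CLDN11, CLDN23, DSG1, DSG2, DSG3, DSC1, DSC2, DSC3, ESRP1 and GRHL2 were also chosen after their values were seen. Promoters are from RefSeq (GRCh38.p14) and were matched by symbol. Python 3.11.15, numpy 2.4.6 and pandas 2.3.3 were used, and the calling functions were tested on simulated data. Some items of the lists are not reported here.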

Additional observations from a re-analysis of the deposited data

How the results depend on the processing

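Each of the 10 genes kept its direction and its side of the interval criterion under the alternatives that gave it a value: both groups scaled to the same FPKM sum, quantile normalization, no filter, a pseudocount of 0.1, the interval of the difference in place of separated intervals, and summed rows of a symbol, which changed nothing since each has 1 row. When means under 5 FPKM were left out, KRT34, KRT80 and CLDN1 dropped out, so 0 of the remaining genes rose or fell in place of 1, and 1 in place of 2 was at least 2-fold lower. With the same sum, and after quantile normalization, 1 in place of 2 was at least 2-fold lower, since KRT18 moved from -1.13 to -0.93 and -0.94. KRT34 ranged from -4.22 (pseudocount 0.1) to -2.60 (same sum). Over all genes the interval of the difference gave 339 in place of 169 (180 higher and 159 lower in place of 104 and 65), and 4 in place of 1 companion genes, with LMNB1 and NES among those added, on the lower side. With means of 5 FPKM or more, 1372 in place of 2180 genes were at least 2-fold different and 712 in place of 1317 higher. The medians without a filter were 0 for the claudins and for the non-keratin filament genes, since most of their members are near 0. No paired analysis was possible because there are no columns for separate samples; for the same reason leaving out a replicate was not run. Depth is unknown, and the values of the 10 genes under 1 FPKM (KRT19, CDH1, EPCAM and induced KRT34) had intervals that reached 0.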

Other observations

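Keratin-associated proteins cross-link keratins in the hair shaft. Of 93 keratin-associated genes 33 lie on chromosome 17, in the region of KRT34, and the others on chromosomes 11 and 21. Over all 93, 75 were listed at 0 in both groups and 5 were kept. The 5 kept, all on chromosome 17, were KRTAP1-5, KRTAP2-3, KRTAP3-1, KRTAP1-3 and KRTAP4-12. KRTAP1-5 (chromosome 17, 39182278 to 39183454 in hg19) fell, with a log2 difference of -3.02, being at 59.9 FPKM uninduced (interval 22.7 to 97.1) and 6.50 FPKM induced (0.0468 to 12.9). KRTAP2-3 was at 35.7 FPKM (6.52 to 64.9) and 4.64 FPKM (0 to 9.89), and KRTAP3-1 at 3.57 FPKM (0 to 8.93) and 0.219 FPKM (0 to 0.833), both lower in value with overlapping intervals. KRTAP1-3 went the other way in value, listed at 0 uninduced and at 6.08 FPKM induced (0 to 12.2), and KRTAP4-12 was at 0.716 and 2.06 FPKM, both with overlapping intervals. KRTAP1-5 thus fell as KRT34 did, while its neighbours in the region did not all move in 1 direction. Members of this family are close copies, and how the counting split reads among them is not stated. The other hair keratin above the filter, KRT37, was at 0.0988 FPKM (0 to 0.374) and 1.27 FPKM (0 to 2.81), opposite in direction of value to KRT34. However, KRT37, KRTAP1-3 and KRTAP4-12 were kept only through the induced group, and KRT34 and KRTAP3-1 only through the uninduced group. A gene kept through only 1 group must be higher in that group, so these opposite directions were fixed by the filter. The genes of this paragraph were chosen after their values were seen.

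Markers of other cells gave few values. Among the fibroblast markers FAP, a surface protease, alone was separated: it fell, being at 36.8 FPKM uninduced (interval 14.3 to 59.4) and 3.84 FPKM induced (0 to 9.41). The list went both ways, with 7 of 15 above 0 and 8 below. At least 2-fold higher in value were COL3A1 (125 and 445 FPKM), FN1 (863 and 2111 FPKM), DCN (58.1 and 122 FPKM) and POSTN (0.343 and 3.32 FPKM). At least 2-fold lower beside FAP were THY1 (388 and 92.5 FPKM), S100A4 (492 and 231 FPKM) and VIM (2098 and 905 FPKM). The keratinocyte marker PERP was at 42.1 and 33.5 FPKM, the melanocyte factor MITF at 8.62 and 3.66 FPKM and PMEL at 0.753 and 1.46 FPKM. Of 6 immune markers 3 were kept, the highest by mean being CD68 at 94.0 and 178 FPKM. All these intervals except those of FAP overlapped, and their part in the values of the 10 genes was not tested.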
